A study of Mus musculus with 4 samples.

Results

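The genes described here are 9 markers of endoderm: the transcription factor genes Gata4, Gata6, Sox17, Sox7, Foxa1, Foxa2 and Hnf4a, the receptor gene Pdgfra and the endocytic adaptor gene Dab2. They were chosen by symbol as factors and signalling markers of primitive and definitive endoderm, and all 9 were found among the 24428 gene symbols of the count files. The data are poly(A) RNA-seq read counts from 129SvEv mouse embryonic stem cells at passages 15 to 20, grown in 15% serum with LIF, the cytokine that keeps such cells undifferentiated. In all 4 libraries both Smarca4 alleles were floxed and a tamoxifen-activated Cre recombinase (CreER) was present. Smarca4 encodes BRG1, an ATPase of the mSWI/SNF (BAF) chromatin remodelers. The ethanol group (EtOH, n = 2) received ethanol, and the tamoxifen group (Tam, n = 2) received 4-hydroxytamoxifen at 0.8 uM over 48 h. Cells were collected 72 h after the treatment began. Cells lacking the floxed alleles but given the drug were not analysed here, so deletion, drug and active Cre cannot be told apart. Whether the 2 libraries of a group came from separate cultures is not in the labels, so the p-values reflect just the spread among these samples, which could be technical.

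Primitive endoderm forms beside the epiblast in the blastocyst, under the influence of FGF signalling, and gives rise to the yolk sac. GATA6 and GATA4 act early in this lineage, followed by SOX17 and SOX7, and HNF4A and the FOXA factors act in its visceral branch. Definitive endoderm, which forms the gut, arises later from the primitive streak and uses SOX17, FOXA2, FOXA1, GATA4, GATA6 and HNF4A again. Stem cell cultures in serum and LIF can hold a minority of endoderm-like cells, and in a bulk library fewer cells of a type and less RNA per cell cannot be told apart.

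The promoters shown are those of Foxa1 and Foxa2, the members with the largest log2 fold changes below, which passed the test both with and without a correction for GC content. Sequences are from RefSeq (GRCm38.p6), 5′ to 3′ on the strand of the gene, and cover the 250 bases before an annotated start, less any annotated exon. Of the 9 genes, 5 had an entry, with 9 starts in all. The windows printed are the one of Foxa1 and, of those of Foxa2, the one with the most motif matches. Capitals mark a GATA motif (AGATAA), a forkhead motif (TGTTTAC) or a SOX motif (ACAAAG), each searched on both strands.
Foxa1, chr12:57546122-57546361, minus strand: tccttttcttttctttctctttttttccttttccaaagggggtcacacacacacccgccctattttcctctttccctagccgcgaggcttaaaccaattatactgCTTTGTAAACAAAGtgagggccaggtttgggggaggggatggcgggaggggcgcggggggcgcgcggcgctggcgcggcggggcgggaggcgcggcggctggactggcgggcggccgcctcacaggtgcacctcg
Foxa2, chr2:148045465-148045714, minus strand: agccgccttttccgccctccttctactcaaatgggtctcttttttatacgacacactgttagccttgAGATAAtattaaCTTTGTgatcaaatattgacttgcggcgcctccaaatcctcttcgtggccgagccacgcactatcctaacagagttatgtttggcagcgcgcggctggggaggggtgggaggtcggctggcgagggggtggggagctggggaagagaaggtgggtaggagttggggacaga
In the Foxa1 promoter a forkhead motif, 141 to 135 bases before the start, overlaps a SOX motif on either side. A further SOX motif of that window, 8 to 3 bases before the start, lies in an annotated exon and is not printed. In the Foxa2 window a GATA motif, 183 to 178 bases before the start, is followed by a SOX motif 171 to 166 bases before that start. Of the other 7 windows 1, of Hnf4a, held a match, a GATA motif 52 to 47 bases before the start that lies partly in an annotated exon. Of all 32851 windows of this length, 9.99% hold the GATA motif, 3.17% the forkhead motif and 16.5% the SOX motif. These matches describe letters only. GC content was 62.0% in the Foxa1 window and 54.4% in that of Foxa2, against a median of 52.4% over all windows.

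The libraries held 13458463 to 27086142 reads in genes. Smarca4 was counted 5042 and 10649 times with ethanol and 968 and 1226 times with tamoxifen, and fell by 2.43 ± 0.17 on the log2 scale (SE; edgeR quasi-likelihood test, adjusted p = 1.08e-05). Stem cell markers were abundant throughout, with 12 markers summing to 6060 to 6198 CPM with ethanol and 5852 to 6189 CPM with tamoxifen (CPM, read counts scaled to a common library size with TMM factors), 1 of them higher and 2 lower. With GC correction 3 were higher and 3 lower, and without either tamoxifen library 0 were higher and 1 lower. The most abundant was Tdgf1, at a mean of 1340 CPM. Libraries also differed along the GC content of transcripts, and this trend followed the treatment. The median log2 fold change was -0.72 in the lowest GC decile of tested genes and 0.68 in the highest. The fold changes of the 9 genes are therefore given beside those of a fit with each library's GC trend removed (-2.81 for Smarca4). Technical and treatment parts of the trend cannot be told apart, and the correction removes both. The share of counted reads that matched no gene was 51.7 and 40.8% with ethanol and 37.6 and 35.0% with tamoxifen. The part of this difference in the results was not tested.

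Of the 9 genes, 4 were higher with tamoxifen (Foxa1, Foxa2, Hnf4a and Gata4), none was lower and 5 did not pass (edgeR quasi-likelihood test, adjusted p under 0.05 over 14479 tested genes). Over all tested genes 44.5% were called, 21.5% higher and 22.9% lower (3119 and 3322 genes, and 4082 and 2520 when scaled by total counts alone, where the median of all genes was 0.12). The median log2 fold change of the 9 genes was 0.45, and that of all tested genes -0.0052. With GC correction Gata4 was not called and 3 genes were higher and none lower, against 10.8% and 10.3% of all genes (21.1% in all), and the median of the 9 genes was 0.24. All 9 passed the filter on low counts. Both tamoxifen libraries lay above both ethanol libraries for 5 of the 9 and below them for 1, against 37.0% and 37.0% of all tested genes (74.0% without overlap). The summed level of the 7 transcription factor genes was 154 and 137 CPM with ethanol and 215 and 198 CPM with tamoxifen. Of the 7, Gata4 was the most abundant, at a mean of 73.0 CPM with ethanol and 106 CPM with tamoxifen. With Pdgfra and Dab2 added the sums were 851 and 561 CPM with ethanol and 834 and 661 CPM with tamoxifen, and the groups overlapped.

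**Figure D1:**
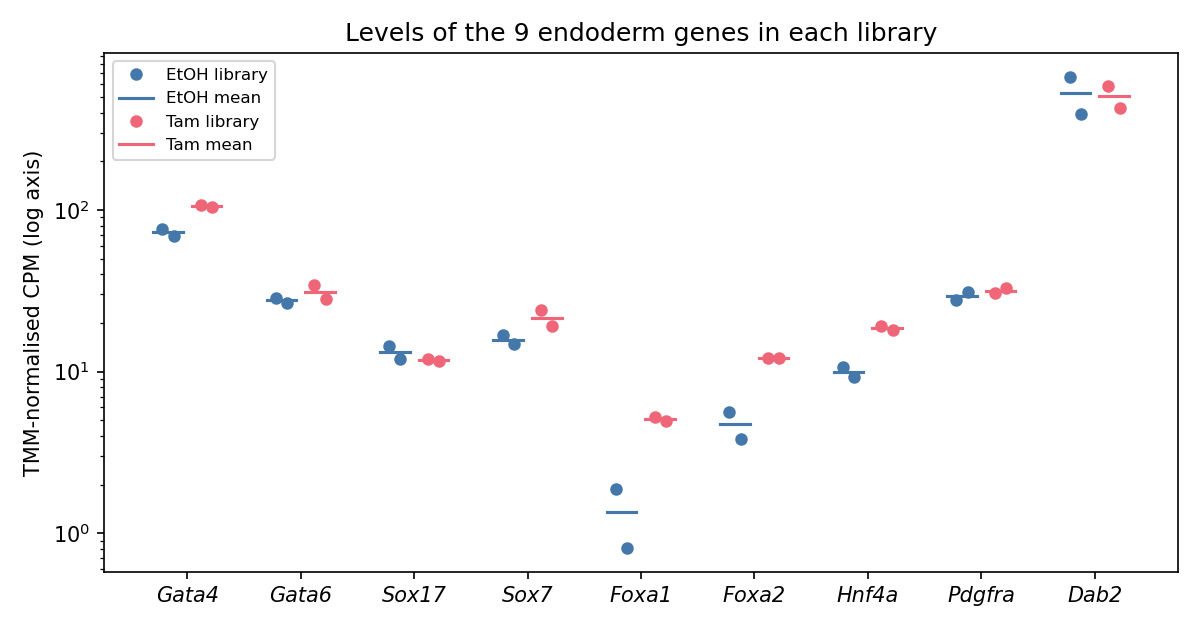
Level of each of the 9 endoderm genes (x axis) in TMM-normalised CPM (y axis, log scale), with 1 point per library and a line at the mean of each group (n = 2). The tamoxifen libraries lie above both ethanol libraries for Gata4, Sox7, Foxa1, Foxa2 and Hnf4a, and Dab2 is the most abundant gene in every library.

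The FOXA factors are pioneer factors, able to bind sites in closed chromatin, and open liver and gut enhancers. Foxa1 was at 1.89 and 0.806 CPM with ethanol and 5.24 and 4.93 CPM with tamoxifen, from 29, 21, 74 and 88 reads. The groups did not overlap, although the ethanol libraries differed from each other. Exact 95% Poisson intervals, which cover counting error only, ran from 1.27 to 2.71 and from 0.499 to 1.23 CPM for the ethanol libraries and did not reach those of the tamoxifen libraries, whose lowest bound was 3.96 CPM. The rise was 4.02-fold, with a log2 fold change of 2.01 ± 0.34 (SE; adjusted p = 0.000836) and 1.74 with GC correction. It was 2.65 without ethanol replicate 1, the library with the higher Foxa1 level of that pair, and 1.43 without ethanol replicate 2, called in both cases. Foxa1 was thus the member with the largest fold change and the lowest level, above only 19.0% of tested genes in mean CPM.

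Foxa2, needed for the node, notochord and definitive endoderm as well as visceral endoderm, was at 5.60 and 3.84 CPM with ethanol and 12.1 and 12.2 CPM with tamoxifen. The tamoxifen libraries were close together, and both stood well above the ethanol pair. The rise was 2.62-fold, with a log2 fold change of 1.39 ± 0.21 (SE; adjusted p = 0.000471), and 0.94 with GC correction (adjusted p = 0.00514). Both Foxa1 and Foxa2 stayed called when any 1 library was left out, with or without GC correction. Foxa1 gave 25.2% and 17.4% of the reads of the pair with ethanol and 30.2% and 28.8% with tamoxifen. The groups did not overlap. The exact binomial 95% interval of ethanol replicate 1 (17.6 to 34.2%) covered both tamoxifen values, and that of ethanol replicate 2 (11.1 to 25.3%) lay below both.

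Hnf4a encodes a nuclear receptor that drives visceral endoderm and liver genes. It was at 10.6 and 9.26 CPM with ethanol and 19.2 and 18.1 CPM with tamoxifen, with tight pairs and no overlap. The rise was 1.88-fold, with a log2 fold change of 0.91 ± 0.17 (SE; adjusted p = 0.00138), and 0.68 with GC correction (adjusted p = 0.0110). The corrected call ended without tamoxifen replicate 1 (0.64) and without tamoxifen replicate 2 (0.72).

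The GATA factors bind the GATA sequence, and either can drive stem cells to an endoderm fate when forced on. Gata4 was at 76.5 and 69.5 CPM with ethanol and 108 and 104 CPM with tamoxifen. Its groups did not overlap, and it rose 1.45-fold, with a log2 fold change of 0.54 ± 0.14 (SE; adjusted p = 0.00909). With GC correction the value was 0.070 and not called. The Gata4 transcript, at 57.4% GC, lies in decile 9 of tested genes by GC content, where the median log2 fold change was 0.51 and 50.6% of genes were called higher. The uncorrected call also ended without tamoxifen replicate 1 (0.52, adjusted p = 0.0731) and without tamoxifen replicate 2 (0.57, adjusted p = 0.0533).

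Gata6, the earlier of these factors, was at 28.6 and 26.7 CPM with ethanol and 34.2 and 28.1 CPM with tamoxifen. The groups overlapped, since the lower tamoxifen value lay between the ethanol values. The log2 fold change was 0.17 ± 0.16 (SE; adjusted p = 0.397), a fold of 0.904 to 1.41 for 2 SE either way, and it turned to -0.17, not called, with GC correction. An opposite-strand gene, 1010001N08Rik, overlaps Gata6 exons in the GENCODE annotation and had 24 to 47 reads. No strand setting is stated, so how reads of the shared stretch were counted is not known. Opposite-strand genes that were not counted overlap exons of Sox17 (Gm37587), Dab2 (Gm18888) and Pdgfra (Gm42802 and Gm42803). Mir7025, on the same strand as Pdgfra, had no read. Within the pair of Gata4 and Gata6, Gata4 gave 72.8% and 72.3% of the reads with ethanol and 75.9% and 78.8% with tamoxifen. The share was thus higher in both tamoxifen libraries. It does not depend on the scaling between libraries, but it is not corrected for GC content (57.4% in Gata4, 55.3% in Gata6). Also, 2 against 2 cannot go below a two-sided exact permutation p of 0.333.

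SOX17 and SOX7 are SOXF factors that follow the GATA factors in primitive endoderm, and Sox17 also marks definitive endoderm. Sox17 was at 14.4 and 12.0 CPM with ethanol and 12.0 and 11.6 CPM with tamoxifen. The tamoxifen values lay just below the lower ethanol value, and the log2 fold change of -0.16 ± 0.17 (SE; adjusted p = 0.481) was within the spread, at a fold of 0.703 to 1.14 for 2 SE either way. It was -0.31, not called, with GC correction. Sox7 was at 16.7 and 14.8 CPM with ethanol and 24.1 and 19.1 CPM with tamoxifen. Its groups did not overlap, and the log2 fold change of 0.45 ± 0.17 (SE; adjusted p = 0.0503) missed the threshold narrowly (0.40 with GC correction, adjusted p = 0.109).

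Of the reads of this pair, Sox17 took a lower share in both tamoxifen libraries. It gave 46.2% and 44.8% of the pair's reads with ethanol and 33.1% and 37.8% with tamoxifen. The groups did not overlap, and the exact binomial 95% interval of tamoxifen replicate 1 (29.1 to 37.4%) lay below those of both ethanol libraries, which began at 41.7 and 41.1%. That of tamoxifen replicate 2 reached 42.1%. Here too the smallest two-sided exact permutation p is 0.333.

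**Figure D2:**
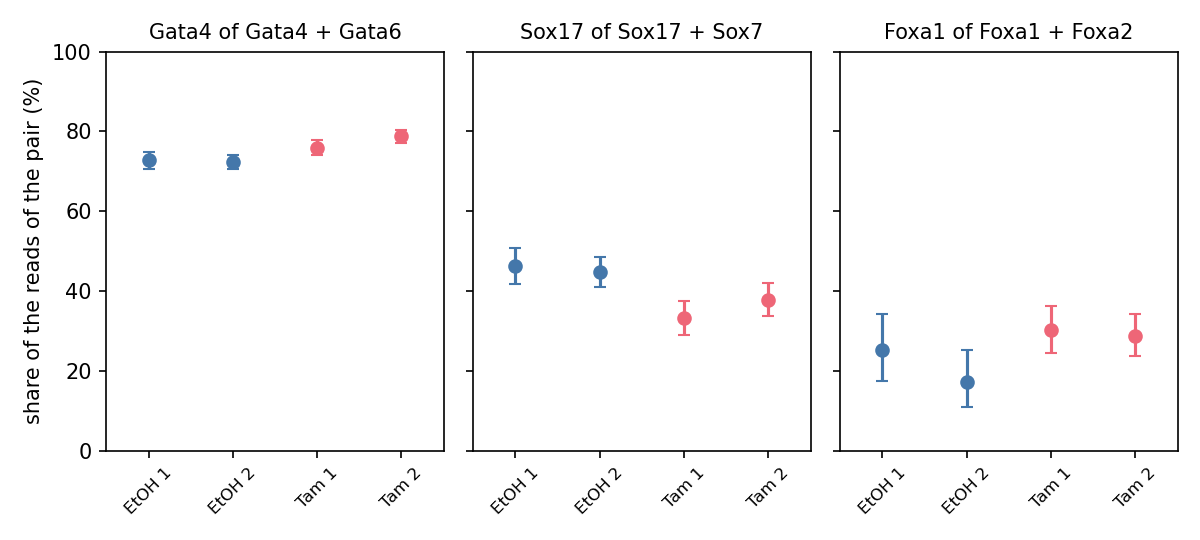
Share of the reads of each pair of related genes that came from the first named gene (y axis, percent) in each library (x axis), with exact binomial 95% intervals that cover counting error only. The Sox17 share is lower and the Gata4 and Foxa1 shares are higher in both tamoxifen libraries, with the interval of Foxa1 in ethanol replicate 1 covering both tamoxifen values and that in ethanol replicate 2 below both.

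The other two members take part in signalling and uptake. Pdgfra, the PDGF receptor found on primitive endoderm and on mesenchyme, was at 27.6 and 31.0 CPM with ethanol and 30.5 and 33.0 CPM with tamoxifen. The groups overlapped, with a log2 fold change of 0.11 ± 0.15 (SE; adjusted p = 0.574) and a fold of 0.875 to 1.34 for 2 SE either way, and 0.24, not called, with GC correction. Dab2, a clathrin adaptor of the endocytic surface of primitive endoderm, was the most abundant member, above 98.2% of tested genes. It was at 669 and 394 CPM with ethanol and 589 and 430 CPM with tamoxifen. The ethanol libraries enclosed both tamoxifen values, and the log2 fold change was -0.061 ± 0.25 (SE; adjusted p = 0.865). Dab2 turned positive with total counts (0.069), with GC correction (0.23), without ethanol replicate 1 (0.38) and without tamoxifen replicate 2 (0.15), none of them called. It was called higher only with GC correction and without ethanol replicate 1 together (0.66, adjusted p = 0.00120), so its direction changes with the scaling, the correction and the libraries kept.

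**Figure D3:**
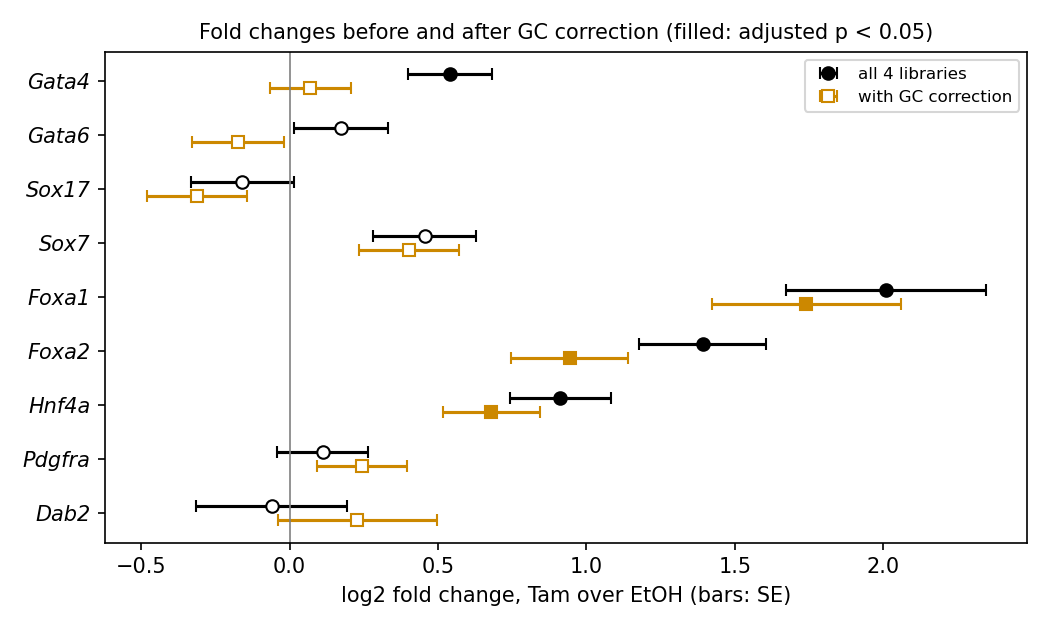
Log2 fold change of tamoxifen over ethanol (x axis, bars show the SE) for each of the 9 genes (y axis), without (black circles) and with (orange squares) GC correction, filled where the adjusted p was under 0.05. Foxa1, Foxa2 and Hnf4a are filled in both, while Gata4 goes from 0.54 to 0.070.

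Levels between genes were compared per length, as CPM per kilobase of the longest transcript. With ethanol Dab2 stood first, at 114 ± 41.7 CPM per kb (SD, n = 2), followed by Gata4 at 21.5 ± 1.46 and Gata6 at 7.30 ± 0.364. Sox7 (4.78 ± 0.420 CPM per kb), Pdgfra (4.29 ± 0.352) and Sox17 (4.07 ± 0.519) came next and did not differ beyond their spread. Nor did Hnf4a (2.28 ± 0.221) and Foxa2 (2.22 ± 0.586), and Foxa1 was lowest at 0.422 ± 0.240. With tamoxifen the order began with the same 4 genes, Dab2 at 109 ± 24.1 CPM per kb, Gata4 at 31.2 ± 0.713, Gata6 at 8.23 ± 1.13 and Sox7 at 6.54 ± 1.09, the last pair within their spread. Foxa2 came next, at 5.71 ± 0.0391 CPM per kb, within the spread of Sox7. Pdgfra was at 4.64 ± 0.254 and Hnf4a at 4.27 ± 0.174, and Sox17 (3.63 ± 0.0779) and Foxa1 (1.59 ± 0.0674) were last.

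The members were spread along GC content, from 45.7% in Dab2 to 57.4% in Gata4, and 7 of the 9 lay above the median of tested genes (50.1%). Foxa1 (54.2%) lies in decile 8 by GC content, whose median log2 fold change was 0.37, Foxa2 (57.0%) in decile 9 (0.51), and Hnf4a (53.7%) in decile 7 (0.20). All 3 lay above those medians, and Gata4 was at the median of its own. Sox17 (52.6%) was below the median of decile 7, and Gata6 (55.3%) below that of decile 8. Sox7 (0.45 against 0.093 in decile 6), Pdgfra (0.11 against -0.19 in decile 4) and Dab2 (-0.061 against -0.33 in decile 3) also lay above their medians. Lying above the decile median was therefore not particular to called members.

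**Figure D4:**
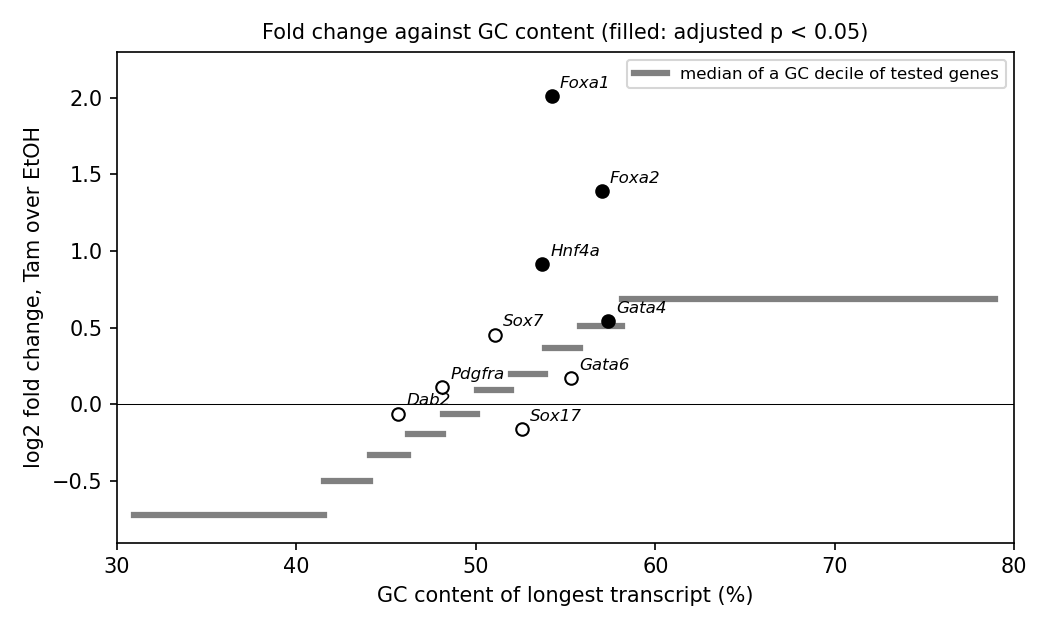
Log2 fold change of tamoxifen over ethanol (y axis) against GC content of the longest transcript in percent (x axis) for the 9 genes (points, filled where the adjusted p was under 0.05), with grey bars at the median of each GC decile of tested genes. Foxa1, Foxa2 and Hnf4a stand well above the grey bars, and Gata4 lies at 0.54 against a bar at 0.51. Sox7, Pdgfra and Dab2, not called, also lie above their bars.

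Of 19 relatives of the members in the same families, 17 were tested. Of these 8 were higher and 1 lower (median log2 fold change 0.54), against 21.5% and 22.9% of all tested genes. With GC correction 3 were higher and 0 lower (median 0.23), against 10.8% and 10.3% of all tested genes. DESeq2 called 4 higher and 1 lower, against 2422 higher and 2867 lower of all 14479 genes. Zfpm1, which encodes the GATA cofactor FOG1, rose from 20.0 ± 6.30 to 45.3 ± 0.400 CPM (SD, n = 2), a log2 fold change of 1.19 that fell to 0.30, not called, with GC correction. Pdgfrb, the other PDGF receptor gene, rose 2.02-fold, from 5.63 ± 0.130 to 11.4 ± 0.947 CPM, and stayed called with the correction (0.69). The third FOXA gene, Foxa3, and the third SOXF gene, Sox18, had log2 fold changes of 0.54 ± 0.27 and 0.57 ± 0.27 (SE) from low levels of 1.99 and 1.89 CPM, and did not pass (adjusted p = 0.121 and 0.104). Foxa3 was singled out after its values were seen. Gata5 (2 to 4 reads per library) and Hnf4g (0 or 1) were below the filter, and were likewise named afterwards.

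Over all tested genes 21.5% were higher and 22.9% lower, and with GC correction 10.8% and 10.3%. Among other products of primitive, visceral and parietal endoderm, 12 of 38 tested genes were higher and 5 lower (median log2 fold change 0.15). With GC correction 4 were higher and 5 lower (median 0.0079), and without tamoxifen replicate 1, uncorrected, 7 were higher and 3 lower. Apoe, an apolipoprotein secreted by visceral endoderm, rose by 1.40 ± 0.17 log2 (SE; 0.82 with GC correction). Thbd, the surface protein thrombomodulin of parietal endoderm, rose by 1.14 ± 0.18 (1.06 with the correction). The basement membrane collagen gene Col4a2 rose by 0.84 ± 0.15 but was at 0.19, not called, with the correction. Apob, another visceral endoderm apolipoprotein, went the other way and fell from 155 ± 19.7 to 80.9 ± 15.9 CPM (SD, n = 2), a log2 fold change of -0.94 (-0.51 and still called with the correction).

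Genes of the primitive streak, definitive endoderm and anterior visceral endoderm were higher in 9 and lower in 3 of 27 tested cases (median 0.28). With GC correction they were higher in 8 and lower in 4 (median 0.32). The shares of all tested genes were 21.5% higher and 22.9% lower, and 10.8% and 10.3% with the correction. Cer1, a secreted antagonist made in anterior visceral and definitive endoderm, had 33 and 38 reads with ethanol and 109 and 124 with tamoxifen, a 4.17-fold rise (log2 fold change 2.06, and 2.22 with GC correction). Nodal, the ligand that induces definitive endoderm, rose 2.38-fold (1.25 log2, and 0.86 with GC correction). Snai1, a repressor of epithelial genes in the streak, rose by 1.51 ± 0.20 log2 (SE; 0.91 with GC correction). Trh, the thyrotropin-releasing hormone gene, fell by 2.49 ± 0.22 log2, from 69.2 ± 21.8 to 12.3 ± 0.784 CPM (-2.80 with GC correction). These 3 sets share no gene with the 9 members, and the earlier results of these data were known when they were drawn up.

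Markers of other cell types were measured beside them. The last 2 lists below, of cardiac and lateral mesoderm and of gut, liver, pancreas and lung, are of types that use some of the same factors. For comparison, 21.5% of all tested genes were higher and 22.9% lower, and 10.8% and 10.3% with GC correction. Of 21 tested fibroblast markers 15 were higher and 0 lower, with GC correction 15 and 1, and their summed level went from 2036 to 2339 CPM with ethanol to 3159 to 3288 CPM with tamoxifen, led by Fn1 at a mean of 1614 CPM. Pdgfrb is on that list too. Trophectoderm markers were higher in 4 and lower in 2 of 8 tested cases (1 and 2 with GC correction), their sum was 243 to 248 CPM with ethanol and 345 to 363 with tamoxifen, and Tpbpa had no read. Without tamoxifen replicate 2 they were higher in 2 and lower in 1. Krt18 was the most abundant of them, at a mean of 110 CPM with ethanol and 175 CPM with tamoxifen. Cdx2, Elf5 and Prl3d1, like Tpbpa, were below the filter. The part of these lists in the changes of the 9 endoderm genes, of which 4 were called higher, was not tested. Cardiac and lateral mesoderm markers summed to 26.7 to 27.4 CPM with ethanol and 26.5 to 26.6 with tamoxifen, led by Tbx20 (9.09 CPM), with 2 higher and 1 lower of 7 tested, and 0 in either direction with GC correction. The 12 gut, liver, pancreas and lung markers summed to only 3.06 to 4.11 CPM with ethanol and 3.25 to 4.37 with tamoxifen. Of these, 10 were below the filter, Sftpc and Serpina1a had no read, and Krt20 was highest at 1.60 CPM.

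The genes closest to the 2 most abundant called members in pattern over the 4 libraries were found by the Euclidean distance of log2 CPM values centred on each gene's mean. Nearest to Gata4 were Snapc4, Spen and Sox18, at distances of 0.023 to 0.032, with log2 fold changes of 0.56, 0.52 and 0.57. With GC correction these went to 0.18, 0.032 and -0.10, as Gata4 went to 0.070. Nearest to Hnf4a were Hcn2, Ubqln4 and Spry2, at distances of 0.025 to 0.045, with log2 fold changes of 0.90, 0.87 and 0.91. These parted with the correction, to 0.046, 0.50 and 1.17. With only 4 libraries in 2 groups, the distances are a description.

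**Figure D5:**
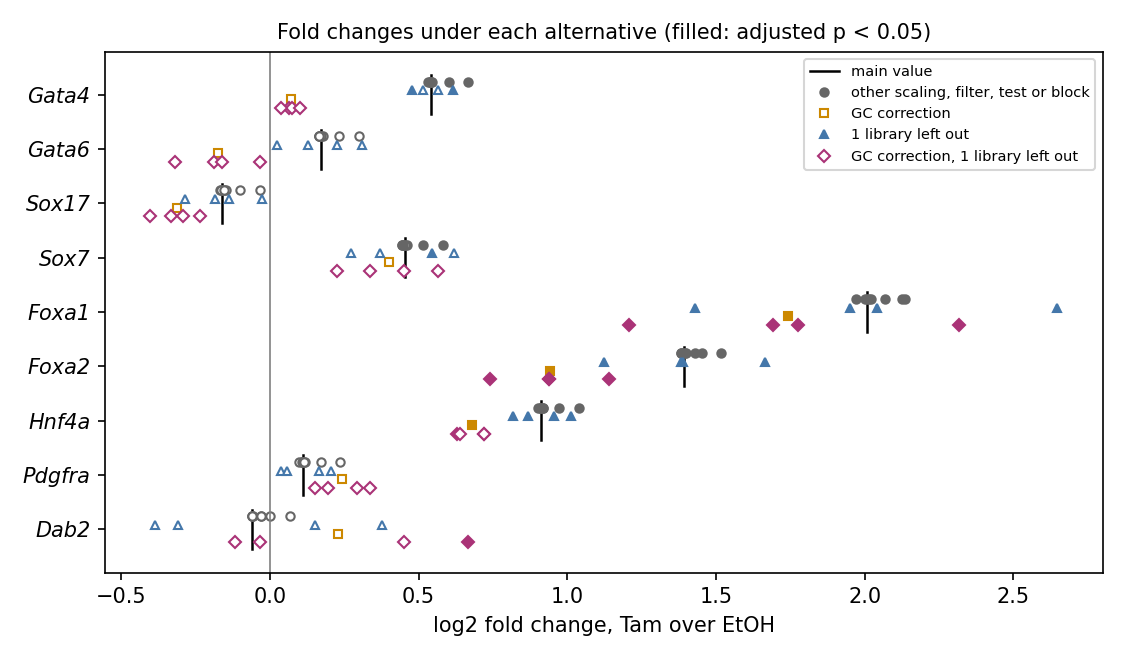
Log2 fold change of tamoxifen over ethanol (x axis) of each of the 9 genes (y axis) in the fit to all 4 libraries (line) and under 17 alternatives (symbols by kind, filled where the adjusted p was under 0.05). Foxa1 (1.21 to 2.65) and Foxa2 (0.74 to 1.66) are filled throughout, and Dab2 spans both signs (-0.38 to 0.66).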

How the data were processed

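Each library has 1 file, in which the authors deposited raw read counts by gene symbol. Its 5 closing summary lines were left out of library sizes and tests. The line for reads that matched no gene held 51.7 and 40.8% of the total with ethanol, and 37.6 and 35.0% with tamoxifen. Ambiguous reads, on a line of their own, were 0.889 and 0.966% with ethanol, and 1.05 and 1.05% with tamoxifen. The submitters' processing notes name CASAVA 1.8.2, Bowtie 1.1.1, HTSeq, DESeq2 and the build mm9. No annotation or strand setting is given in the sources used here.

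Groups were taken from the sample titles. The treatments were compared by edgeR 4.0.16 (R 4.3.3): TMM factors, filterByExpr, a robust quasi-likelihood fit with treatment as its sole term, and Benjamini-Hochberg adjustment over 14479 tested genes at a threshold of 0.05. Positive values mean higher with tamoxifen. The SE is the log2 fold change, without its sign, divided by the root of F. For GC correction the deviation of log2 CPM (prior count 2) from the gene's mean was fitted on transcript GC content by loess (span 0.5) in each library, and the fitted trend was used as an offset. Transcript GC content and length were those of the longest GENCODE transcript of GRCm38, a build other than that of the files, and 99.4% of tested genes had a value.

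Named genes were Smarca4, the 9 members, up to 4 called genes of smallest adjusted p in each of 3 sets of related genes, the most abundant gene of each marker list and the 3 nearest genes in pattern to each of 2 members. Some genes this rule names are not reported here. The members and lists were chosen with earlier results of these data known. The alternatives were other scaling, filters and thresholds, DESeq2 1.42.0, limma voom 3.58.1, the replicate number as a block, GC correction and leaving out each library. Combining the last 2 was an alternative chosen after seeing the data. The procedure was tested on simulated data.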

Additional observations from a re-analysis of the deposited data

How the results depend on the processing

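Foxa1 and Foxa2 stayed higher and called under all 17 alternatives run for single genes, Hnf4a under 15 and Gata4 under 10. The 2 exceptions of Hnf4a combine GC correction with leaving out a tamoxifen library. The 7 of Gata4 are the 5 with GC correction and the 2 without a tamoxifen library. Sox7 (adjusted p = 0.0503) was called under 7: RLE, upper-quartile and total-count scaling, either other filter, the replicate block and without ethanol replicate 1. Gata6 turned negative with GC correction (-0.17; -0.19 and -0.16 without ethanol replicates 1 and 2, -0.32 and -0.035 without tamoxifen replicates 1 and 2). Dab2 turned positive with total counts (0.069) and with GC correction (0.23), and ranged from -0.38 to 0.38 when 1 library was left out. With both GC correction and 1 library left out, Dab2 was at 0.66 and -0.12 without ethanol replicates 1 and 2. It was at -0.034 and 0.45 without tamoxifen replicates 1 and 2. Sox18 went to -0.10 with GC correction. The cause of these changes was not tested.

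Of all 14479 tested genes 3119 were higher and 3322 lower, against 1560 and 1493 with GC correction. There were 1765 and 2041 at an adjusted p under 0.01, and 859 and 970 at 2-fold or more. Calls thus fell over all genes at these settings, and the smaller counts of members and lists below stand beside that fall. When 1 library was left out there were 1800 to 3598 higher and 2055 to 3728 lower. With GC correction too, there were 1828 and 1905 without ethanol replicate 1, 1834 and 1888 without ethanol replicate 2, 731 and 791 without tamoxifen replicate 1, and 471 and 485 without tamoxifen replicate 2. Members higher numbered 3 to 5 when 1 library was left out, 2 with GC correction and without either tamoxifen library, and 2 at 2-fold or more.

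Other endoderm products (12 higher, 5 lower) numbered 4 higher with GC correction, 7 higher at an adjusted p under 0.01, 4 higher and 2 lower at 2-fold, and 7 to 13 higher and 3 to 7 lower when 1 library was left out. Streak and definitive endoderm genes numbered 1 lower at 2-fold and 6 to 11 higher when 1 library was left out. Family relatives (8 higher, 1 lower) numbered 4 higher with DESeq2, 3 and 0 with GC correction, 4 higher at an adjusted p under 0.01, 5 and 0 at 2-fold, and 5 to 8 higher and 0 to 1 lower when 1 library was left out.

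Replicate numbers are shared by the groups, but nothing in the labels ties them to a culture or day, and the deviations of the 2 replicates numbered 1 correlated at 0.234 over 14479 genes. With the replicate number as a block, 3919 genes were higher and 4168 lower, and 5 members were higher and 0 lower. A fit without 1 library takes the spread of the single one left in that group from the other pair. Depth limits Foxa1 most, at 21 to 88 reads per library.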
